A study of Mus musculus with 3 samples.

Results

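Natural killer (NK) cells of the mouse lung were picked out of 3 single-cell libraries by counts of unique molecular identifiers (UMIs, each standing for 1 captured transcript). Barcodes below 500 UMIs or 200 genes, or above 20% mitochondrial UMIs, were dropped and the rest are called kept cells. NK cells were chosen by the counts of 6 genes, as kept cells with at least 1 Ncr1 UMI, at least 1 Nkg7 UMI, no UMI of Cd3d, Cd3e or Cd3g, and at most 1 Cd79a UMI. This gave 455 NK cells among 30973 kept cells, of which 295 were in Control, 122 in Model and 38 in PD00. Each treatment was 1 library, so no comparison has a replicate check, no p-value is given, and every interval is an exact 95% interval that covers counting error only. All 3 libraries were labelled as lung tissue of healthy mice aged 3 months, and differed in their labels only by the treatment, Control, Model or PD00. The series title names ovalbumin, an allergen used to induce airway allergy, and the peptidomimetic PD00. The labels do not say how the Model was made, whether the PD00 mice also received ovalbumin, the strain, or how many animals were pooled in a library.

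NK cells are innate lymphocytes that kill infected or transformed cells by releasing perforin and granzymes, and that secrete interferon gamma and chemokines. Germline-encoded receptors, activating or inhibitory, decide whether they respond, and interleukin 15 acting through Il2rb together with the T-box factors Eomes and Tbx21 keeps them alive and drives their maturation. The lung holds many circulating, mature NK cells, and their maturation is read from the loss of Cd27 and the gain of Itgam, Klrg1 and S1pr5.

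The upstream sequences of 4 effector genes are shown because they encode granule proteins and a chemokine typical of NK cells, and T-box factors bind such genes. Nkg7 was also used to choose the cells, so nothing is read from its level. Each is the stretch of 250 bases before the gene's start, 5′ to 3′ on the gene's own strand, from RefSeq on GRCm38.p6. Capitals mark the T-box half-site letters TCACACC or, on the other strand, GGTGTGA. Nkg7 lies at chr7:43436888-43437137 on the plus strand, Xcl1 at chr1:164935523-164935772 on the minus strand, Gzma at chr13:113100982-113101231 on the minus strand and Prf1 at chr10:61297586-61297835 on the plus strand.
Nkg7: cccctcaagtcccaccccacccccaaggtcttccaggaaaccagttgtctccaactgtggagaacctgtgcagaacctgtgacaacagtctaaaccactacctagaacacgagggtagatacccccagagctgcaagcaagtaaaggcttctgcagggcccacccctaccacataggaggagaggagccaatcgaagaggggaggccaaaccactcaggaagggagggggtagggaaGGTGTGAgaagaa
Xcl1: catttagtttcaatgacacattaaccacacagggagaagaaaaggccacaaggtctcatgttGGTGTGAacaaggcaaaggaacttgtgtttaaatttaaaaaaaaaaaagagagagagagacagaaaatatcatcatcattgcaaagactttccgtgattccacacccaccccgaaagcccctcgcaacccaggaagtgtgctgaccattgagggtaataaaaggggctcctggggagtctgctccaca
Gzma: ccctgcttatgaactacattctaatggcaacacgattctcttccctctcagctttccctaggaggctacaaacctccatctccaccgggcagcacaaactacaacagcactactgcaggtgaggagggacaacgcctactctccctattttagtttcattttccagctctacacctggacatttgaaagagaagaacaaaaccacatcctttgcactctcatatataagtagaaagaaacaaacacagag
Prf1: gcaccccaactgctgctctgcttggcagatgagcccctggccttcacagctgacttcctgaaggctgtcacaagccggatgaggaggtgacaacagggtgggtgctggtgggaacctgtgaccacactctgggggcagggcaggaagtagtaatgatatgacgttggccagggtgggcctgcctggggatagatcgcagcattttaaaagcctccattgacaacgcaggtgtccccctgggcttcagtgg
The match began 13 bases before the start of Nkg7, a granule membrane protein, and 188 bases before the start of Xcl1, the chemokine that draws cross-presenting dendritic cells. Neither Gzma nor Prf1 held these letters. In windows of 300 bases, from 250 before to 50 after the start, 1307 of 32851 promoters (3.98%) held a match on either strand, or 1244 of 27025 genes (4.6%). Among 20 granule and death-ligand genes with a promoter in the table, 5 held one, namely Nkg7, Gzmk, Gzmm, Ctsc and Rab27a (25%). Of 15 cytokine and chemokine genes only Xcl1 did (6.67%), of 13 activating receptors Cd160, and of 13 inhibitory receptors Klra1. Of the 123 genes whose values are named in the text, 94 were found in the table and 6 held a match (6.38%): Itga4, Klra1, Nkg7, Nr4a3, Rspry1 and Xcl1. A match is a description of these letters, not a binding site.

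The members carried the programme of NK cells beyond the genes that chose them. Eomes UMIs were found in 68.8% of Control, 81.1% of Model and 63.2% of PD00 NK cells, against 0.541%, 1.31% and 0.111% of B cells, which should lack the gene. Klrb1c, which encodes NK1.1, was found in 20.3%, 24.6% and 28.9% of NK cells and in 0.216%, 0% and 0.111% of B cells. The median depth was 2959, 3363.5 and 3402.5 UMIs per NK cell and 3253.5, 5664 and 7331 per B cell. Among genes outside the rule with at least 200 UMIs over the 3 NK sums, the lead over the other kept cells of the same library was widest for the Ly49 receptor Klra7, whose level in CPM (summed UMIs of the gene per 1000000 UMIs of the library's NK cells) was at least 82.9 times that of the other cells in each library. The same lowest ratio over the 3 libraries was 66.5 for the granule protease Gzma, 63.9 for the lectin-like receptor Klre1, 60.8 for the granzyme inhibitor Serpinb9b, 59.0 for perforin (Prf1), 49.4 for the mast cell protease Cma1 and 49.2 for Eomes. These leads describe a chosen set and were not tested.

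The values that chose the cells were Ncr1 and Nkg7, and both are given as a description. Summed Ncr1 was 410 CPM in Control, 387 in Model and 265 in PD00, and Nkg7 was 1653, 1344 and 952 CPM, with a median of 6, 6 and 5 Nkg7 UMIs per NK cell. Just inside the rule, 168 Control, 76 Model and 24 PD00 NK cells had exactly 1 Ncr1 UMI, and 68.5%, 77.6% and 70.8% of them had Eomes UMIs. Just outside it, 298, 229 and 76 cells met every term except Ncr1, and 55.0%, 35.4% and 48.7% of those had Eomes UMIs. Of them, 181, 76 and 27 had 3 or more Nkg7 UMIs, and in these Eomes was found in 74.6%, 73.7% and 85.2%. A further 26, 37 and 7 cells failed only the Cd3 term and 20, 11 and 4 only the Nkg7 term. The Cd3 genes were at 0 in all NK cells by the rule, and Cd8a and Cd8b1 were at 0 as well. Trbc1, a T cell receptor constant gene, had UMIs in 73.2%, 71.3% and 81.6% of NK cells and in 1.84%, 3.55% and 2.79% of B cells. Summed over 10 T cell markers, the level was 818, 610 and 556 CPM in NK cells and 3359, 2599 and 2396 CPM in T cells (cells with at least 2 Cd3 UMIs and at most 1 Cd79a UMI). These markers include the Cd3 genes that chose both groups, so part of that gap was fixed in advance.

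A small set of deep barcodes stood apart from the other NK cells. Barcodes with over 10000 UMIs numbered 15 in Control, 8 in Model and 5 in PD00, 28 of 455 in all, and held 23.9%, 25.4% and 48.3% of all NK UMIs. In them Lyz2, a lysozyme of macrophages and neutrophils, stood at 8494, 2413 and 4894 CPM, against 549, 426 and 281 CPM in the other NK cells and 8650, 2649 and 3133 CPM in all other kept cells. Gzma went the other way, at 1552, 2028 and 2319 CPM in the deep barcodes and 12758, 9199 and 7835 CPM in the rest. A doublet score of at least 0.2 was given to 11 of the 28. Below the cut, a Control barcode of 9630 UMIs held 67 Lyz2 UMIs and a Model barcode of 9384 UMIs held 90. The set of at most 10000 UMIs is therefore not free of such barcodes. Summed over 8 macrophage markers, the level in all NK cells was 3638, 7585 and 26215 CPM and in those of at most 10000 UMIs 903, 3398 and 4808 CPM. Both orders ran the same way as in the other kept cells (12706, 32597 and 44244 CPM). Each result below is therefore given over all NK cells and, where it differs, over those of at most 10000 UMIs, and the part of macrophage RNA in the results was not tested.

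**Figure D1:**
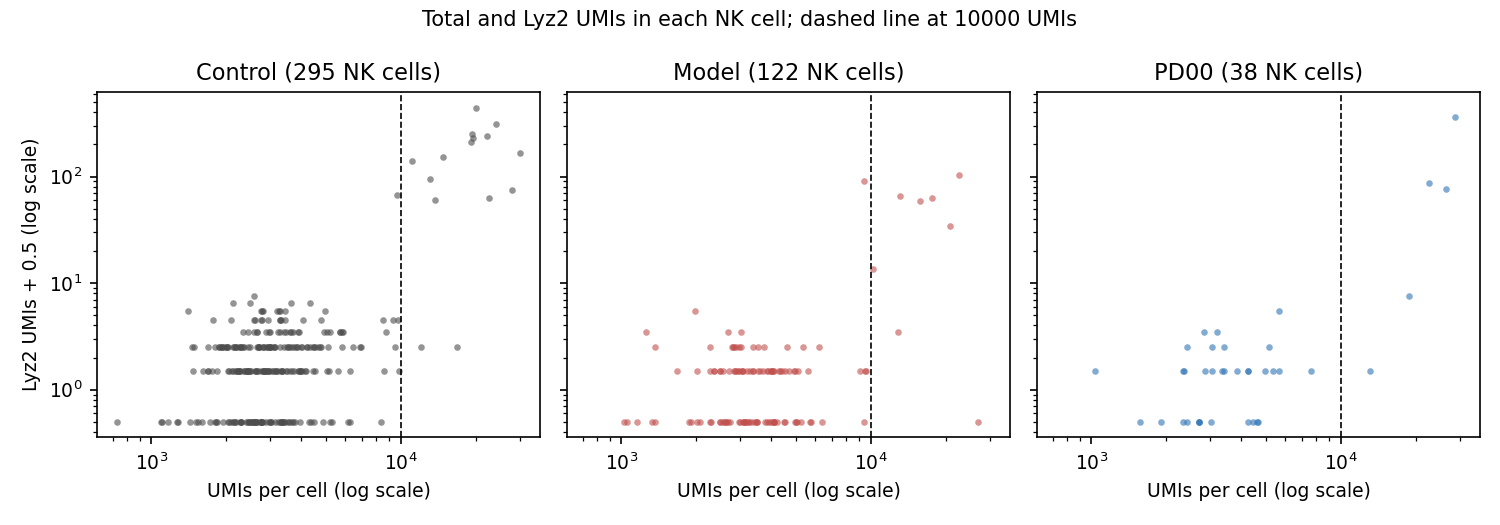
Each point is 1 NK cell of the named library, with its total UMIs on the x axis and its Lyz2 UMIs plus 0.5 on the y axis, both on log scales, and the dashed line marks 10000 UMIs. Of the 28 cells to the right of the line, 22 had at least 10 Lyz2 UMIs.

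Over the whole libraries, total UMIs were between 80288883 and 83281019 and kept cells between 9647 and 11537 per library. Between 31 and 43 barcodes were shared by each pair of libraries and none of them was an NK cell. Markers of other cell types in NK cells were low for B cells (6.68, 10.9 and 22 CPM over 4 markers) and for basophils and mast cells (0.835, 1.82 and 0 CPM over 4). The B cell markers include Cd79a, which the rule held at no more than 1 UMI per cell. Plasma cell markers stood at 67.6, 937 and 701 CPM in NK cells and at 245, 9723 and 8318 CPM in the other kept cells. Markers of tissue-resident NK cells or group 1 innate lymphoid cells summed to 146, 272 and 181 CPM, with Zfp683 at 0 in all 3 libraries. Over NK cells of at most 10000 UMIs they summed to 167, 78.0 and 145 CPM, with Model then lowest. Markers of group 2 innate lymphoid cells summed to 357, 351 and 384 CPM, with Il13 at 0 in Control and Model. Over NK cells of at most 10000 UMIs their sums were 367, 436 and 597 CPM. Fibroblast markers were 120, 832 and 4.41 CPM over all NK cells and 156, 26.8 and 8.53 CPM over those of at most 10000 UMIs. Haemoglobin genes were 2657, 134 and 30.9 CPM, and their part in the results was not tested.

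The NK share was highest in Control and lowest in PD00. NK cells were 3.01% of kept cells in Control (2.68 to 3.37), 1.06% in Model (0.879 to 1.26) and 0.394% in PD00 (0.279 to 0.540), with no overlap of the counting intervals. The Model share was 2.85-fold lower than the Control share (2.30 to 3.55), the PD00 share 2.69-fold lower than the Model share (1.85 to 3.97) and 7.65-fold lower than the Control share (5.45 to 11). Among lymphocytes alone (NK, T and B cells by count gates) the NK share was 9.28%, 2.76% and 1.08%. T cells numbered 1961, 3233 and 2587 and B cells 924, 1070 and 897. With Klre1 in place of Ncr1 the shares were 2.53%, 0.875% and 0.363%. With Klrb1c in place of Ncr1 they were 1.06%, 0.451% and 0.249%, and the differences were smaller. Model was then 2.36-fold below Control, and PD00 1.81-fold below Model (1.10 to 3.07) and 4.27-fold below Control. Leaving out barcodes of over 10000 UMIs from NK cells and from kept cells gave 4.34%, 1.27% and 0.479%. After every cell was thinned to 1000 UMIs, with shallower cells left out, the shares were 1.33%, 0.522% and 0.129%. The order Control, Model, PD00 held in each of these, while a share of captured cells does not give the number of NK cells in the lung.

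**Figure D2:**
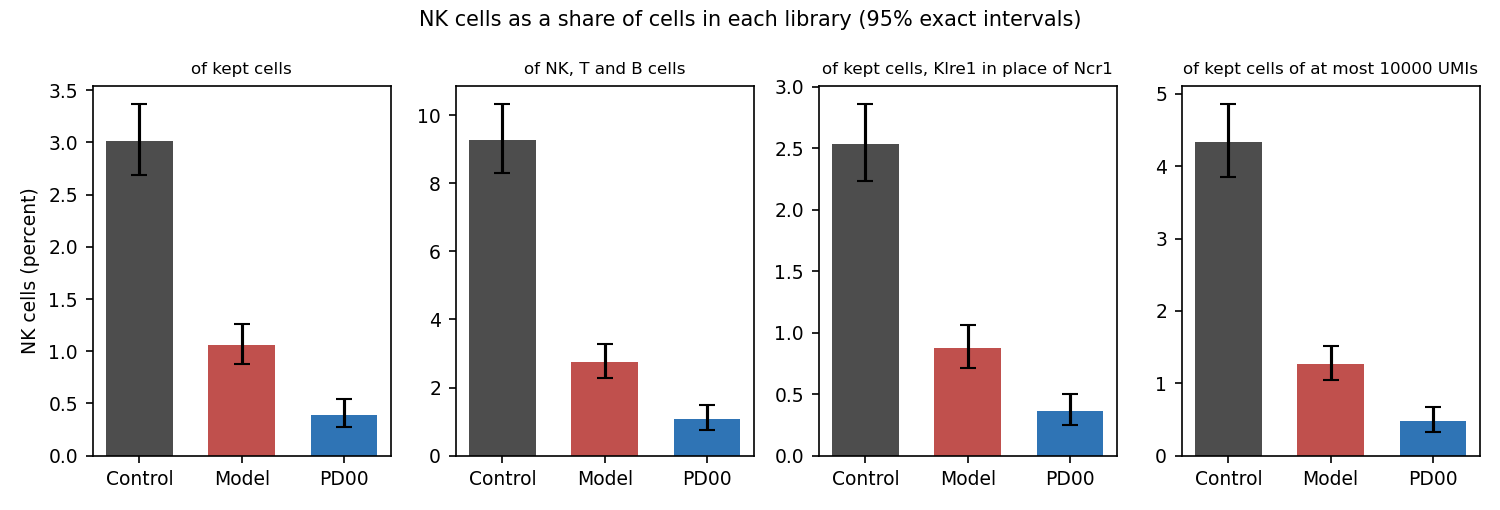
Bars are NK cells as a percentage of cells in each library, with 95% exact intervals, by the denominator or rule named above each panel. Control is highest and PD00 lowest in each panel, from 3.01% to 0.394% of kept cells.

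Gene levels were compared as the ratio of CPM between the NK sums of 2 libraries, which held 1198056, 550558 and 226814 UMIs. A gene was measured where both sums together held 50 UMIs or more, and called higher or lower past 1.5-fold. In Model against Control 444 of 4553 genes were higher (9.75%) and 648 lower (14.2%), or 24% either way. For PD00 against Model, 249 of 2474 were higher (10.1%) and 241 lower (9.74%), or 19.8% either way. In PD00 against Control 478 of 4001 were higher (11.9%) and 732 lower (18.3%), or 30.2% either way. Among NK cells of at most 10000 UMIs the calls were 334 higher (9.27%) and 544 lower (15.1%) of 3603, 165 higher (10.2%) and 112 lower (6.94%) of 1614, and 572 higher (18.9%) and 591 lower (19.6%) of 3020. The split between higher and lower depended on the scaling in Model against Control: with median-of-ratios scaling 558 genes were higher and 515 lower, and with mitochondrial, ribosomal and haemoglobin genes left out of the total 334 higher and 868 lower. With every cell weighted equally, the split was 332 higher and 213 lower in PD00 against Model and 773 higher and 747 lower in PD00 against Control. The median log2 ratio over all genes was -0.07, 0.03 and -0.07 in the 3 comparisons, the base against which each list median below is read. Without the deep barcodes it was -0.06, 0.10 and 0.04, the base for list medians without them. The comparisons share libraries, so they are not independent of each other.

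Genes were ranked under conditions applied only in the library of each comparison where the gene was higher. The level in NK cells was at least 2 times that in the other kept cells, and no cell held over 20% of the UMIs. Under these conditions, the genes furthest above Control in Model included an enzyme of purine breakdown, a receptor and a transcription factor. Xdh, the xanthine dehydrogenase, stood at 39.2 CPM in Control, 129 in Model and 115 in PD00, 3.29-fold higher in Model than in Control (2.24 to 4.86). Its ratio in T cells was 2.21. P2ry10, a lysophospholipid receptor, stood at 176, 345 and 220 CPM (1.96-fold higher in Model, 1.6 to 2.40). Nfatc3, a calcium-regulated transcription factor, stood at 83.5, 182 and 132 CPM (2.18-fold, 1.63 to 2.90). Adamts14, a secreted protease, was 56.8, 134 and 123 CPM and Gpc1, a cell-surface proteoglycan, 57.6, 136 and 75 CPM, both 2.37-fold higher in Model. Tex2 (38.4, 98.1 and 97.0 CPM) and Rspry1 (19.2, 54.5 and 35.3 CPM) completed this group with Dgat1, described with metabolism.

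The genes furthest below Control in Model included the chemokines Xcl1 and Ccl4, the transcription factor Klf2 and histones. Hist1h1e, a linker histone, stood at 715 CPM in Control, 314 in Model and 119 in PD00. It was 2.28-fold lower in Model than in Control (1.93 to 2.70) and 2.64-fold lower in PD00 than in Model (1.75 to 4.12), and its ratio in T cells was 0.623 and 0.875. It held 2.16-fold and 2.23-fold among NK cells of at most 10000 UMIs. Hist1h1c, another linker histone, was 355, 200 and 101 CPM. The core histone Hist1h2ap (149, 63.6 and 70.5 CPM) was 2.35-fold lower in Model but 1.39-fold lower among NK cells of at most 10000 UMIs. Borcs7 (59.3, 20 and 30.9 CPM), Prr7 (50.9, 16.3 and 35.3 CPM) and Tmem243 (114, 49.0 and 44.1 CPM) were 2.97-fold, 3.11-fold and 2.33-fold lower in Model than in Control.

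In PD00 against Model 8 higher genes met the same conditions and had an interval above 1. B4galnt1, an enzyme that makes gangliosides, stood at 166 CPM in Control, 142 in Model and 256 in PD00, 1.80-fold higher in PD00 than in Model (1.26 to 2.57). Dennd4a, a regulator of Rab GTPases, was 607, 834 and 1010 CPM (1.21-fold higher in PD00 than in Model, 1.03 to 1.42, and 1.49-fold among NK cells of at most 10000 UMIs). Mllt6 (47.6, 63.6 and 119 CPM), Cpne3 (60.1, 50.9 and 110), Mfhas1 (60.9, 56.3 and 106), Tuba4a (80.1, 54.5 and 110), Zmat2 (195, 118 and 185) and Anp32b (446, 358 and 481) made up the rest, between 1.34-fold and 2.17-fold. On the lower side stood Ptger4, the EP4 receptor for prostaglandin E2, at 59.3, 105 and 26.5 CPM, 3.98-fold lower in PD00 than in Model (1.72 to 11.3). Its 6 UMIs in PD00 set that wide interval, and in T cells the ratio was 1.58. Epsti1, an interferon-induced gene, was 82.6, 104 and 35.3 CPM (2.94-fold lower, 1.39 to 7.12), with a T cell ratio of 0.512. Ctla2b (117, 98.1 and 26.5 CPM) and the peptidyl-prolyl isomerase Ppig (624, 476 and 273 CPM) were 3.71-fold and 1.74-fold lower. Gzma, Ccl5 and Klra7 were the other members of this group. The limit on UMIs in a single cell was not applied in PD00 for these lower genes. For Klra7 the top PD00 cell held 5 UMIs and the others together 12. Against Control, PD00 stood highest for Tulp4 (240, 378 and 467 CPM), Usp25 (98.5, 171 and 207 CPM), Mllt6 and Tex2, and lowest for Hist1h1e, Ccl4, Hist1h1c and Ccl5.

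Most activating receptors were within 1.5-fold between libraries. Of 9 measured in Model against Control none was higher and 1, Cd69, was lower (median log2 -0.13), of 6 in PD00 against Model 1 was higher and 1 lower (-0.12), and of 9 in PD00 against Control 1 was higher and 3 lower (-0.39). The shares over all genes, to be read beside every such count, were 9.75% higher and 14.2% lower, 10.1% and 9.74%, and 11.9% and 18.3% in the same order of comparisons. For counts without the deep barcodes they were 9.27% and 15.1%, 10.2% and 6.94%, and 18.9% and 19.6%. Setting the deep barcodes aside, the median in PD00 against Model was 0.27. Klrk1, which encodes NKG2D, stood at 429 CPM in Control, 323 in Model and 278 in PD00. It was 1.54-fold lower in PD00 than in Control (1.19 to 2.04), and 1.09-fold lower (0.826 to 1.46) among NK cells of at most 10000 UMIs. Klre1 stood at 213, 194 and 110 CPM, 1.76-fold lower in PD00 than in Model (1.13 to 2.85). Klrc2, which encodes NKG2C, was 184, 160 and 190 CPM and Klrb1c 63.4, 76.3 and 66.1 CPM, within 1.5-fold in each comparison. Tnfrsf9, the costimulatory receptor 4-1BB, was 55.9, 81.7 and 132 CPM, but 1 cell held 46.7% of its UMIs in PD00. Without the cell that held most UMIs in each library it was 51.9, 74 and 71.5 CPM. Klra8, the Ly49H receptor, had no UMI in any library.

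Among inhibitory receptors the Ly49 genes Klra7 and Klra1 were those past 1.5-fold. Klra7, which encodes Ly49G, stood at 127 CPM in Control, 180 in Model and 75 in PD00, on 152, 99 and 17 UMIs. It was 1.42-fold higher in Model than in Control (1.09 to 1.84) and 2.40-fold lower in PD00 than in Model (1.43 to 4.28). Without the cell that held most of its UMIs in each library, the values were 119, 148 and 54.7 CPM, and the Model to Control interval then included 1 (0.932 to 1.64). Klra1, the Ly49A receptor, was 42.6 CPM in Control and 14.5 in Model with no UMI in PD00, 2.93-fold lower in Model (1.38 to 7.15). Klra3, the Ly49C receptor, was 286, 238 and 265 CPM and Klrc1, the NKG2A chain that pairs with CD94, 134, 165 and 132 CPM. Klrd1, which encodes CD94, was 441, 314 and 317 CPM, and Klrg1 86.8, 111 and 79.4 CPM. Over the list, 1 of 7 measured members was lower in Model against Control, 1 of 6 in PD00 against Model and 2 of 7 in PD00 against Control, and none was higher. The medians were 0.20, -0.15 and -0.13, and 0.09, 0.17 and 0.35 without the deep barcodes. The Ly49 genes are close copies of each other, so UMIs may be split between them.

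The adaptor chains Tyrobp, Fcer1g and Hcst, which carry receptor signals, stood below Control in Model and PD00. Tyrobp (DAP12) stood at 1431 CPM in Control, 1044 in Model and 807 in PD00, 1.77-fold lower in PD00 than in Control (1.52 to 2.08). Fcer1g, the gamma chain used by CD16 and NKp46, stood at 1358, 843 and 745 CPM, 1.61-fold lower in Model than in Control (1.45 to 1.79). Hcst (DAP10), the partner of NKG2D, stood at 391, 258 and 295 CPM, 1.52-fold lower in Model (1.26 to 1.84), while among NK cells of at most 10000 UMIs its PD00 level was 1.03-fold that of Control (0.772 to 1.36). Tyrobp and Fcer1g are also made by myeloid cells, and the other kept cells gave 887, 535 and 466 CPM for Tyrobp and 755, 456 and 404 CPM for Fcer1g, the same order. In T cells the Model to Control ratio was 0.946 for Tyrobp, 1.08 for Fcer1g and 0.732 for Hcst. Sh2d2a, a T cell and NK cell signalling adaptor, was 354, 452 and 309 CPM. Of 18 measured members 4 were lower and none higher in Model against Control (median log2 0.04). Of 11 in PD00 against Model 2 were lower, and of 17 in PD00 against Control 2 were higher and 3 lower (-0.18 and -0.35, or -0.12 and 0.10 without the deep barcodes).

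The main granule protease was lower in Model and lower again in PD00, while perforin was level. Gzma stood at 10076 CPM in Control, 7374 in Model and 5172 in PD00. It was 1.37-fold lower in Model than in Control (1.32 to 1.42), 1.43-fold lower in PD00 than in Model (1.34 to 1.52) and 1.95-fold lower in PD00 than in Control (1.83 to 2.07). Among NK cells of at most 10000 UMIs the 3 values were 1.39-fold, 1.17-fold and 1.63-fold. Gzma was found in nearly every NK cell, 94.6%, 97.5% and 94.7%, and in 3.79%, 3.93% and 1.11% of B cells, and the amount per cell differed. The median over cells was 128, 82.8 and 64.1 Gzma UMIs per 10000 UMIs. Prf1 stood at 1041, 1090 and 1005 CPM, with each ratio within 1.08-fold. Among NK cells of at most 10000 UMIs it was 1317, 1376 and 1782 CPM, 1.35-fold higher in PD00 than in Control (1.16 to 1.57). Gzmb, the caspase-cleaving granzyme, was 639, 501 and 476 CPM, and 799, 653 and 810 CPM without the deep barcodes.

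Other granule genes were mostly within 1.5-fold. Ctsw, a cysteine protease of cytotoxic cells, stood at 252, 153 and 150 CPM, 1.65-fold lower in Model than in Control (1.29 to 2.13). Cst7, the cystatin that restrains granule cathepsins, was 57.6, 34.5 and 35.3 CPM. Serpinb9, the inhibitor that shields the killer cell from granzyme B, was 543, 648 and 573 CPM, the granule proteoglycan Srgn 871, 776 and 666 CPM and the death ligand Fasl 230, 203 and 163 CPM. Lamp1, a lysosomal membrane protein, was 204, 234 and 375 CPM, and 85.6, 80.4 and 93.8 CPM without the deep barcodes. Over the list, 2 of 15 measured members were lower and none higher in Model against Control (median log2 -0.04), 2 of 12 were higher in PD00 against Model (-0.15), and 2 of 13 were higher and 3 lower in PD00 against Control (-0.39). Without the deep barcodes the medians were -0.09, 0.21 and 0.02, so the sign of the later pair turned.

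Several chemokines stood below Control in Model and PD00. Ccl5 stood at 15471 CPM in Control, 11690 in Model and 6596 in PD00. It was 1.32-fold lower in Model than in Control (1.29 to 1.36) and 1.77-fold lower in PD00 than in Model (1.68 to 1.88), or 1.47-fold without the deep barcodes. Ccl5, Ccl3 and Ccl4 are chemokines that draw T cells and monocytes. Ccl4 stood at 2259, 1079 and 754 CPM, 2.09-fold lower in Model than in Control (1.91 to 2.29) and 3.00-fold lower in PD00 than in Control (2.57 to 3.52). Ccl3 stood at 611, 218 and 225 CPM, 2.80-fold lower in Model (2.31 to 3.43), and 2.21-fold without the deep barcodes. The same chemokines were lower in the other kept cells too: Ccl4 was 257, 107 and 76.6 CPM and Ccl3 390, 71.0 and 58.6 CPM there. Those cells' part in the NK values was not tested.

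Xcl1 was lower in Model than in Control and rested on few cells. It stood at 215 CPM in Control, 54.5 in Model and 145 in PD00, on 257, 30 and 33 UMIs. It was found in 22.7%, 12.3% and 21.1% of NK cells and in 0.433%, 0% and 0% of B cells. It was 3.94-fold lower in Model than in Control (2.69 to 5.95), and 3.99-fold lower without the deep barcodes. In PD00 it was 2.67-fold higher than in Model (1.58 to 4.53), but 1 cell held 60.6% of the PD00 UMIs. Without the cell that held most in each library Xcl1 was 198, 43.9 and 58.7 CPM, 4.50-fold lower in Model than in Control, 1.34-fold higher in PD00 than in Model (0.625 to 2.73) and 3.37-fold lower in PD00 than in Control. Its promoter held the half-site letters shown above, and any relation of these letters to its level was not tested.

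Interferon gamma and tumour necrosis factor were thinly counted. Ifng stood at 128, 98.1 and 44.1 CPM, 2.90-fold lower in PD00 than in Control (1.53 to 6.16) on 10 UMIs in PD00, and 1.85-fold lower (0.979 to 3.95) without the deep barcodes. Tnf stood at 167, 14.5 and 13.2 CPM over all NK cells, and at 25.2 and 7.31 CPM in Control and Model with no UMI in PD00 without the deep barcodes, while the other kept cells gave 489, 20.8 and 26.5 CPM. Ccl6 (740, 1101 and 2046 CPM) and Ccl9 (50.9, 421 and 498 CPM), chemokines that macrophages make, were higher in Model and PD00. In the other kept cells Ccl6 was 2553, 2849 and 3093 CPM and Ccl9 188, 825 and 866 CPM, and without the deep barcodes Ccl6 was 162, 212 and 375 CPM and Ccl9 26.3, 132 and 153 CPM in NK cells. Over the list, 1 of 11 measured members was higher and 5 lower in Model against Control, beside 9.75% and 14.2% over all genes (median log2 -0.40). With PD00 set against Model, 2 of 9 were higher and 3 lower (-0.01, or 0.21 without the deep barcodes), and in PD00 against Control 2 of 11 were higher and 7 lower, beside 11.9% and 18.3% over all genes (-1.23, or -0.66 without the deep barcodes).

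**Figure D3:**
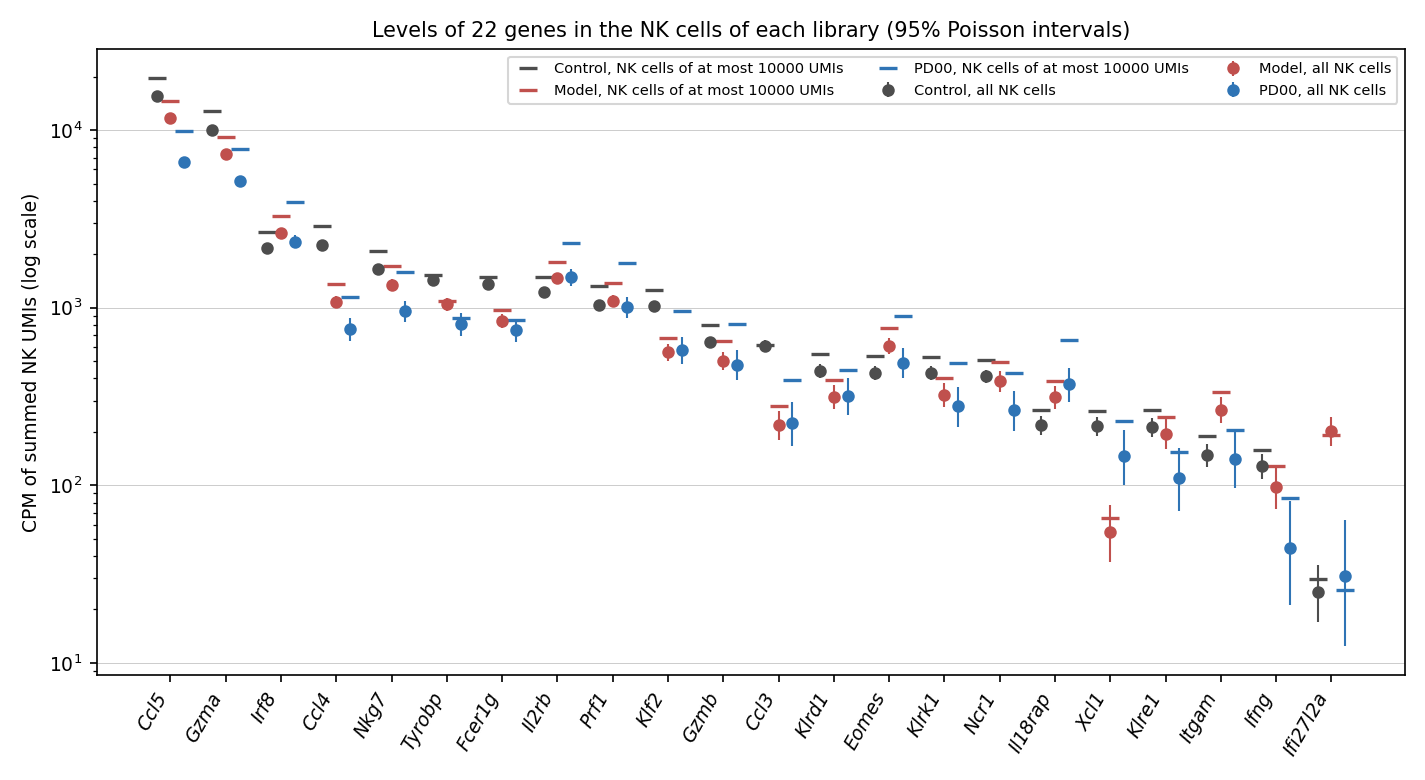
Levels of 22 genes in CPM of the summed NK UMIs on a log scale, with points and 95% Poisson intervals for all NK cells of a library and short bars for NK cells of at most 10000 UMIs. Gzma, Ccl5 and Ccl4 are in the order Control, Model, PD00, while Prf1 lies between 1005 and 1090 CPM.

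Receptor chains for cytokines differed in both directions, with Il2rb and Il18rap above Control in PD00 and Il2rg below it. Il2rb, shared by interleukin 2 and interleukin 15, stood at 1225 CPM in Control, 1464 in Model and 1481 in PD00. It was 1.21-fold higher in PD00 than in Control (1.07 to 1.36), and 1.55-fold without the deep barcodes. Its partner Il2rg was 248, 198 and 132 CPM, 1.87-fold lower in PD00 than in Control (1.29 to 2.83), or 1.46-fold (0.960 to 2.32) without them. Il18rap, the signalling chain of the interleukin 18 receptor, stood at 218, 312 and 370 CPM. It was 1.70-fold higher in PD00 than in Control (1.31 to 2.18), and 2.48-fold (1.89 to 3.22) without the deep barcodes, and its ratio in T cells was 2.72. Il12rb2 was 138, 99.9 and 137 CPM and Ifngr1 1165, 1081 and 970 CPM. Ifnar1, a chain of the type I interferon receptor, was 103, 142 and 185 CPM, 1.80-fold higher in PD00 than in Control (1.24 to 2.58).

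Intracellular signalling genes of the same list were less uniform. Jak1 was 731, 752 and 750 CPM, and Stat4, which acts downstream of interleukin 12, 235, 167 and 141 CPM, 1.66-fold lower in PD00 than in Control (1.15 to 2.48). Socs3, a feedback inhibitor, was 100, 102 and 26.5 CPM, with 6 UMIs in PD00. Il7r stood at 27.5, 78.1 and 137 CPM, but 1 cell held 45.2% of the PD00 UMIs, and without the deep barcodes it was 34.0, 41.4 and 59.7 CPM. Of 19 measured members 1 was higher and none lower in Model against Control (median log2 0.02), of 13 in PD00 against Model 1 was higher and 1 lower (0.00), and of 17 in PD00 against Control 3 were higher and 4 lower (-0.10). With the deep barcodes left out, the medians were -0.16, 0.32 and 0.30.

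The T-box factors were retained and Klf2 was lower. Eomes stood at 430 CPM in Control, 610 in Model and 489 in PD00, 1.42-fold higher in Model than in Control (1.23 to 1.63). Setting the deep barcodes aside, it was 533, 767 and 904 CPM, 1.69-fold higher in PD00 than in Control (1.36 to 2.09). Tbx21 (T-bet) was 79.3, 104 and 79.4 CPM. Irf8, a factor needed for NK cell responses, stood at 2167, 2643 and 2359 CPM, and Ets1, needed for NK cell development, at 649, 845 and 697 CPM. Klf2, which restrains division and controls exit into the blood, stood at 1018, 559 and 578 CPM, 1.82-fold lower in Model than in Control (1.61 to 2.07) and 1.88-fold without the deep barcodes. Klf2 was lower in T cells (ratio 0.281) and in B cells (1083, 271 and 265 CPM) as well.

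Other factors differed over fewer UMIs. Nr4a3, an orphan nuclear receptor induced by receptor signals, was 242, 414 and 265 CPM, 1.71-fold higher in Model than in Control (1.43 to 2.04) and 1.57-fold lower in PD00 than in Model (1.17 to 2.12). Its relative Nr4a2 was 532, 605 and 414 CPM and Id2, needed for all innate lymphoid cells, 787, 703 and 824 CPM. Tcf7, a factor of early NK cells, was 30.9, 18.2 and 61.7 CPM on 37, 10 and 14 UMIs. Of 24 measured factors 2 were higher and 2 lower in Model against Control (median log2 0.14). In PD00 against Model 2 of 20 were lower and none higher (-0.06, or 0.20 without the deep barcodes). In PD00 against Control 2 of 24 were higher and 5 lower (0.03). Without the deep barcodes 5 of 23 were higher and none lower there (0.46), beside 18.9% higher and 19.6% lower over all genes in the same cells.

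Most genes of mature NK cells stood lower in PD00 over all NK cells, and less so without the deep barcodes. Itgam (CD11b) stood at 148 CPM in Control, 267 in Model and 141 in PD00. It was 1.81-fold higher in Model than in Control (1.44 to 2.26) and 1.89-fold lower in PD00 than in Model (1.28 to 2.87), and its T cell ratio was 3.41 and 0.605. Cma1 was 202, 174 and 119 CPM, and the calcium-binding S100a4 260, 167 and 57.3 CPM, 4.53-fold lower in PD00 than in Control (2.61 to 8.60) on 13 UMIs in PD00. Lgals1, a galectin, was 1293, 963 and 701 CPM, 1.84-fold lower in PD00 than in Control (1.57 to 2.19). Of 17 measured members 1 was higher and 3 lower in Model against Control (median log2 -0.23), and of 16 in PD00 against Model 3 were lower and none higher, with 15 of 16 ratios below 1 (-0.47, or -0.13 without the deep barcodes). In PD00 against Control 8 of 17 were lower and none higher, beside 18.3% lower over all genes, with 15 of 17 ratios below 1 (-0.43). Without the deep barcodes the last of these became 1 higher and 5 lower with a median of -0.03, beside 18.9% and 19.6% over all genes. Gzma and Ccl5, described above, were among the lower members.

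Genes of the CD27 side were as mixed. Cd27 was 76.8, 63.6 and 88.2 CPM, and Emb, a cell adhesion protein, 226, 156 and 295 CPM, 1.89-fold higher in PD00 than in Model (1.35 to 2.63). Ctla2a, a cathepsin inhibitor, was 473, 314 and 168 CPM, 2.82-fold lower in PD00 than in Control (2.03 to 4.03). Thy1 was 40.9, 81.7 and 44.1 CPM. Of 13 measured members 2 were higher and 3 lower in Model against Control (median log2 -0.22), of 9 in PD00 against Model 3 higher and 4 lower (0.32), and of 12 in PD00 against Control 3 higher and 4 lower (0.15). With the deep barcodes left out, the medians were -0.33, -0.34 and -0.19.

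Adhesion and trafficking genes were mostly somewhat higher in Model than in Control, with 14 of 16 measured members above 1 and a median log2 of 0.32. The T cell median was the same size (0.32, over 20 measured members). Itga4, a chain of the VLA-4 integrin, stood at 271 CPM in Control, 401 in Model and 419 in PD00, 1.48-fold higher in Model (1.24 to 1.76). Itgal, a chain of LFA-1, was 349, 445 and 436 CPM, its partner Itgb2 518, 608 and 688 CPM and the chemokine receptor Ccr2 139, 193 and 132 CPM. Cd44, the hyaluronan receptor, was 356, 185 and 357 CPM over all NK cells and 149, 129 and 213 CPM without the deep barcodes. Past 1.5-fold there were 1 higher and 1 lower member in Model against Control, 1 and 1 of 16 in PD00 against Model (-0.27), and 1 higher of 16 in PD00 against Control (-0.03). Setting the deep barcodes aside, the later medians were 0.14 and 0.40. Of the list for tissue residence, Cd69 was 95.2, 59.9 and 48.5 CPM, and 3 of 10 measured members were higher and 2 lower in Model against Control (0.20, or -0.12 without the deep barcodes). For PD00 against Model, 2 of 6 were higher and 1 lower (0.07), and in PD00 against Control 1 of 8 was higher and 3 lower (-0.39).

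Few interferon-induced genes reached the UMI minimum, and they did not all differ one way: Ifi27l2a, Gbp7 and Ifi203 stood highest in Model, Irf7 in Control, and Gbp4 was alike in Model and PD00 (40.9, 65.4 and 66.1 CPM). Of 9 measured in Model against Control 4 were higher and 1 lower, beside 9.75% higher and 14.2% lower over all genes (median log2 0.50, or 0.66 without the deep barcodes). Of 6 in PD00 against Model 4 were lower and none higher, beside 9.74% lower over all genes (-0.93). In T cells the medians were 0.03 and -0.57, over 27 and 26 measured members, so the genes compared are not the same. Ifi27l2a, an interferon-induced mitochondrial protein, stood at 25 CPM in Control, 202 in Model and 30.9 in PD00, on 30, 111 and 7 UMIs. It was 8.05-fold higher in Model than in Control (5.34 to 12.5) and 6.53-fold lower in PD00 than in Model (3.07 to 16.6), or 7.39-fold and 6.34-fold without the cell that held most in each library. It was found in 6.78%, 25.4% and 13.2% of NK cells but in 54.5%, 55.0% and 37.0% of B cells. B cells gave 468, 299 and 116 CPM and the other kept cells 232, 362 and 153 CPM, and the T cell ratio of Model to Control was 0.988.

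The other interferon-induced genes were smaller in size. Gbp7, a guanylate-binding protein, was 44.2, 94.4 and 48.5 CPM, 2.14-fold higher in Model than in Control (1.43 to 3.19). Ifi203, a DNA-binding protein, was 70.1, 114 and 44.1 CPM, and Irf7, the master factor of interferon induction, 82.6, 74.5 and 39.7 CPM. In PD00 against Control 1 of 8 members was higher and 3 lower (-0.27, or 0.07 without the deep barcodes). Genes of MHC class I, the ligand that NK cells survey on other cells, and of antigen processing had 9 of 14 ratios above 1 in Model against Control. B2m stood at 1750, 2530 and 2187 CPM, 1.45-fold higher in Model than in Control (1.35 to 1.55), H2-K1 at 1363, 1711 and 1499 CPM and H2-D1 at 3578, 3442 and 3011 CPM. The peptide transporter Tap1 was 30.9, 47.2 and 61.7 CPM and the nonclassical H2-T22 45.1, 94.4 and 30.9 CPM. In Model against Control 2 of 14 members were higher and 1, Psme2, lower, near the 9.75% and 14.2% over all genes (median log2 0.29, against 0.19 over 16 measured members in T cells). With PD00 set against Model, 1 of 12 was higher and 1 lower (-0.16), and in PD00 against Control 1 of 14 was higher and none lower (-0.04, or 0.14 without the deep barcodes).

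More immediate-early genes were called lower than higher in Model against Control, and more so once the deep barcodes were set aside. Over all NK cells 1 of 24 measured members was higher and 5 lower (median log2 -0.23). Among NK cells of at most 10000 UMIs 9 of 21 were lower and none higher, beside 15.1% lower over all genes in the same cells (-0.47), against 6 of 25 lower and none higher (-0.26) in T cells. Jund, an AP-1 subunit, stood at 1512 CPM in Control, 932 in Model and 1111 in PD00, 1.62-fold lower in Model (1.47 to 1.79). Ier2 was 521, 292 and 287 CPM and the antiproliferative Btg2 684, 401 and 322 CPM, 1.78-fold and 1.71-fold lower in Model. Junb was 2465, 2114 and 1830 CPM. Fos was 276, 247 and 185 CPM over all NK cells and 297, 73.1 and 179 CPM without the deep barcodes, Jun 306, 258 and 141 against 368, 117 and 196 CPM, and Egr1 144, 176 and 44.1 against 160, 73.1 and 42.6 CPM. A single Model cell held 57.4% of the Fos UMIs and 47.2% of the Jun UMIs. In PD00 against Model 1 of 22 members was higher and 5 lower (-0.14). Without the deep barcodes 4 of 18 were higher and none lower (0.24), beside 10.2% higher over all genes in the same cells. In PD00 against Control 2 of 23 were higher and 8 lower over all NK cells (-0.36).

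Cell cycle genes depended on the same deep barcodes. Mki67, a protein of dividing cells, was 131, 98.1 and 115 CPM over all NK cells and 25.2, 124 and 153 CPM without them. Top2a was 104, 111 and 159 CPM, and 39.5, 144 and 162 CPM without them. Hmgb2 was 991, 932 and 824 CPM. Of 12 measured members none was higher and 2 were lower in Model against Control (median log2 -0.24). Without the deep barcodes 4 of 9 were higher and none lower (0.50), beside 9.27% higher over all genes in the same cells. In T cells 13 of 24 were higher (0.66). The direction of this list in Model against Control therefore turned with 15 and 8 barcodes. For PD00 against Model, none of 8 was past 1.5-fold (0.20), and in PD00 against Control 1 of 11 was higher and 1 lower (-0.19, or 0.35 without the deep barcodes).

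Most nuclear-encoded genes of the respiratory chain stood somewhat below Control in Model. Of 78 measured members 17 were lower and none higher, beside 14.2% lower over all genes, and 70 of 78 ratios were below 1 (median log2 -0.42). In T cells none of 78 was lower and 2 were higher (0.00). Without the deep barcodes 27 of 74 were lower and 1 higher (-0.46, beside 15.1% lower over all genes). Cox8a, a subunit of cytochrome c oxidase, stood at 892 CPM in Control, 632 in Model and 745 in PD00, 1.41-fold lower in Model (1.25 to 1.6). Ndufa4 stood at 496, 252 and 335 CPM, 1.96-fold lower in Model (1.63 to 2.38). Cox5b was 357, 234 and 242 CPM, the ATP synthase subunit Atp5e 570, 378 and 564 CPM and Cox4i1 807, 721 and 983 CPM.

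In PD00 the same genes lay differently with and without the deep barcodes. Over all NK cells 10 of 66 were higher and 2 lower in PD00 against Model (0.29), and 7 of 78 were lower and none higher in PD00 against Control (-0.08). With the deep barcodes left out, 3 of 47 were higher and none lower in PD00 against Model (-0.03), and 34 of 73 were lower and none higher in PD00 against Control (-0.48, beside 19.6% lower over all genes). The 13 genes of the mitochondrial genome did not follow: none was past 1.5-fold in Model against Control (-0.04, or 0.03 without the deep barcodes). In PD00 mt-Co1 alone was past it, at 5163, 5494 and 8390 CPM, while the other kept cells gave 7289, 9331 and 11433 CPM.

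Other metabolic genes showed single differences rather than a common one. Dgat1, the last enzyme of triglyceride synthesis, stood at 99.3 CPM in Control, 193 in Model and 176 in PD00, 1.94-fold higher in Model than in Control (1.48 to 2.54), with a T cell ratio of 2.40. Pfkp, a glycolytic phosphofructokinase, was 121, 198 and 207 CPM (1.64-fold higher in Model, 1.26 to 2.11). The enolase Eno1 was 175, 98.1 and 137 CPM, 1.79-fold lower in Model (1.32 to 2.46), and Gapdh 523, 445 and 573 CPM. Of 13 glycolytic genes 1 was higher and 2 lower in Model against Control (median log2 0.10), of 11 in PD00 against Model 1 and 1 (0.24), and of 13 in PD00 against Control 3 and 1 (0.30). Of 19 genes of the tricarboxylic acid cycle 1 was higher and 1 lower in Model against Control (0.05), of 9 in PD00 against Model 1 was lower (0.10), and of 17 in PD00 against Control 2 were higher and 2 lower (0.04). For lipid, glutathione and amino acid use 4 of 15 were higher and 2 lower, 3 of 9 higher, and 3 of 14 higher and 2 lower (0.04, 0.02 and 0.19). Setting the deep barcodes aside, the medians for glycolysis were -0.002, -0.17 and -0.13 in the 3 comparisons. The median for the tricarboxylic acid cycle was then -0.26 in PD00 against Control. For the last list it was -0.12 in Model against Control and -0.24 in PD00 against Control. Calls differed too: without the deep barcodes none of 11 glycolytic genes was higher and 2 were lower in PD00 against Control. For the tricarboxylic acid cycle 2 of 12 were then higher and 5 lower there, beside 18.9% and 19.6% over all genes. For the last list none of 7 was higher and 2 were lower in PD00 against Model, beside 10.2% and 6.94% over all genes.

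**Figure D4:**
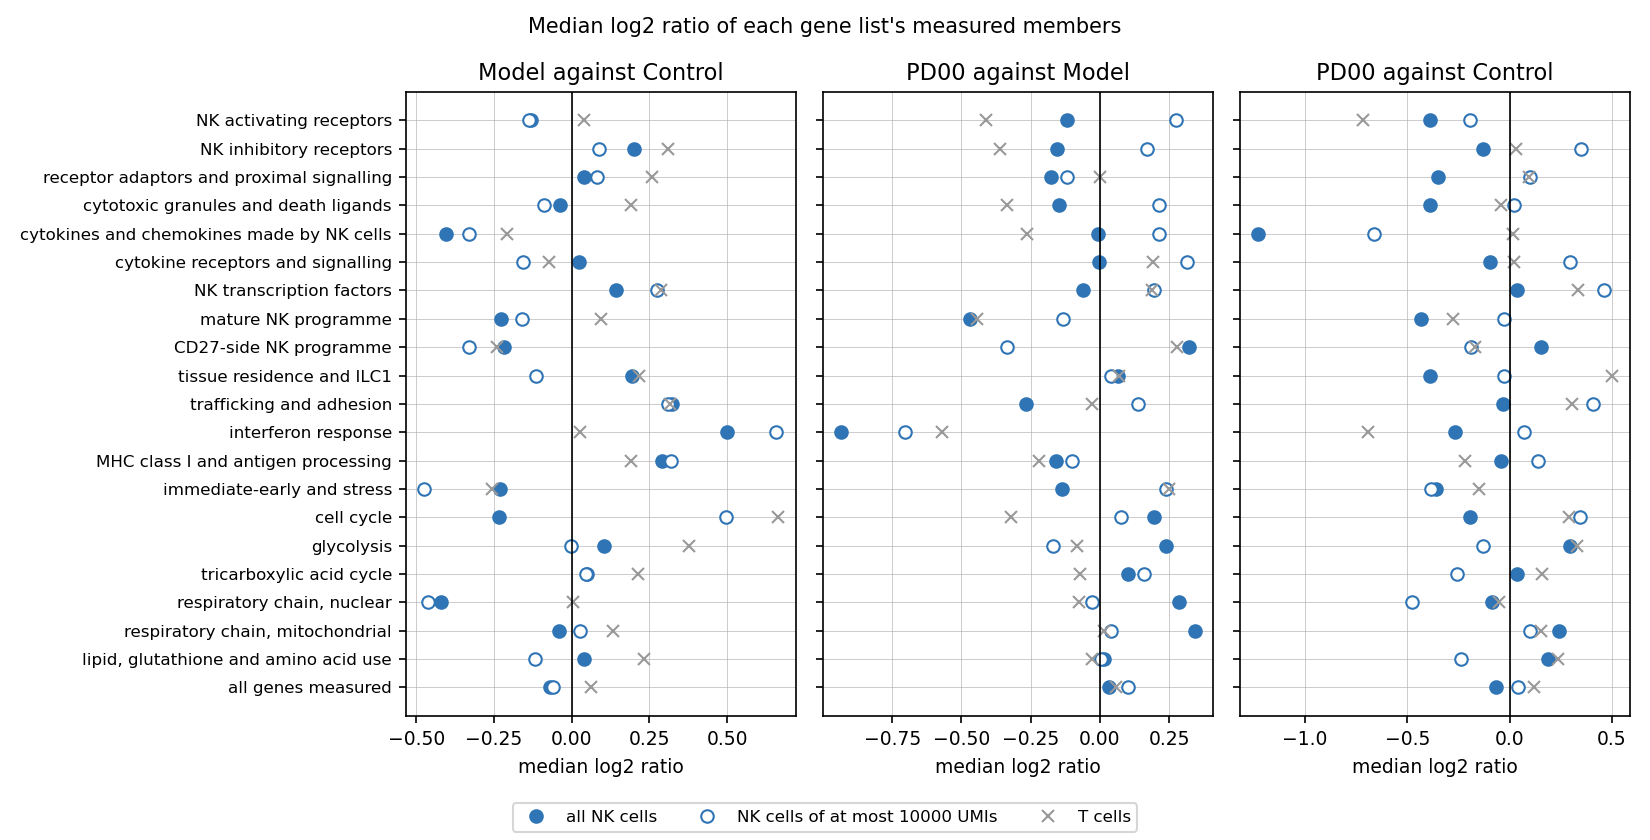
Median log2 ratio of the measured members of each of 20 gene lists, and of all genes measured, for all NK cells (filled circles), NK cells of at most 10000 UMIs (open circles) and T cells (crosses), with 1 panel per comparison and a line at 0. In Model against Control the nuclear respiratory list lies at -0.42 in NK cells and 0.00 in T cells, and the interferon list at 0.50 and 0.03. The members measured can differ between NK and T cells, and for the interferon list they were 9 and 27.

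NK cells of each library could be divided by maturation with 3 genes, Cd27 on the early side and Klrg1 or S1pr5 on the mature side. Cells with Cd27 UMIs alone were 14.9% of Control, 10.7% of Model and 21.1% of PD00 NK cells (44, 13 and 8 cells). Those with Klrg1 or S1pr5 alone were 27.8%, 31.1% and 36.8% (82, 38 and 14 cells). The exact intervals of each gate overlapped among the 3 libraries, from 9.55% to 37.3% on the early side of PD00. After thinning to 1000 UMIs, which left out 1 Control cell, the early gate held 6.46%, 7.38% and 10.5% and the mature gate 12.2%, 11.5% and 10.5%, so no difference in maturation share was detectable at this depth.

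Some genes of the lists differed the same way between the sides in each library. The lists include genes chosen for maturation and the share over all genes was not computed, so the counts are a description. Of 267 list genes measured, leaving out those of the gates and the rule, 17 were higher and 9 lower on the mature side by at least 1.5-fold in all 3 libraries, and 11 and 5 of them did so without the deep barcodes too. Cma1 was 7.35-fold, 6.22-fold and 6.22-fold higher on the mature side in Control, Model and PD00. Gzmb was 3.31-fold, 2.07-fold and 5.94-fold higher, Prf1 2.99-fold, 2.12-fold and 3.44-fold, Itgam 4.01-fold, 2.87-fold and 2.89-fold, and Ccl5 2.28-fold, 1.74-fold and 2.68-fold. These 5 also held without the deep barcodes, where Cma1 was 4.96-fold, 5.39-fold and 3.90-fold higher, Gzmb 2.57-fold, 1.96-fold and 3.90-fold and Prf1 2.17-fold, 2.10-fold and 1.69-fold. The Cma1 value in PD00 then rested on 12 against 2 UMIs. On the early side stood Emb, 6.69-fold, 20.4-fold and 2.11-fold lower on the mature side, and Ctla2a, 1.99-fold, 2.62-fold and 2.57-fold lower, or 2.54-fold, 4.81-fold and 5.39-fold without the deep barcodes. The Emb value in Model rested on 3 against 26 UMIs. Cd69, Ltb and H2-Q7 were lower on the mature side in the same way. Xcl1 was 8.91-fold, 2.95-fold and 13.5-fold lower on the mature side, but in Model it rested on 4 against 5 UMIs, and was 1.36-fold without the deep barcodes. Among all PD00 NK cells, 1 cell held 20 Xcl1 UMIs and the others together 13. Irf8 (1.95-fold, 1.77-fold and 1.79-fold higher) did not hold without the deep barcodes, where its ratio in PD00 was 0.937.

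**Figure D5:**
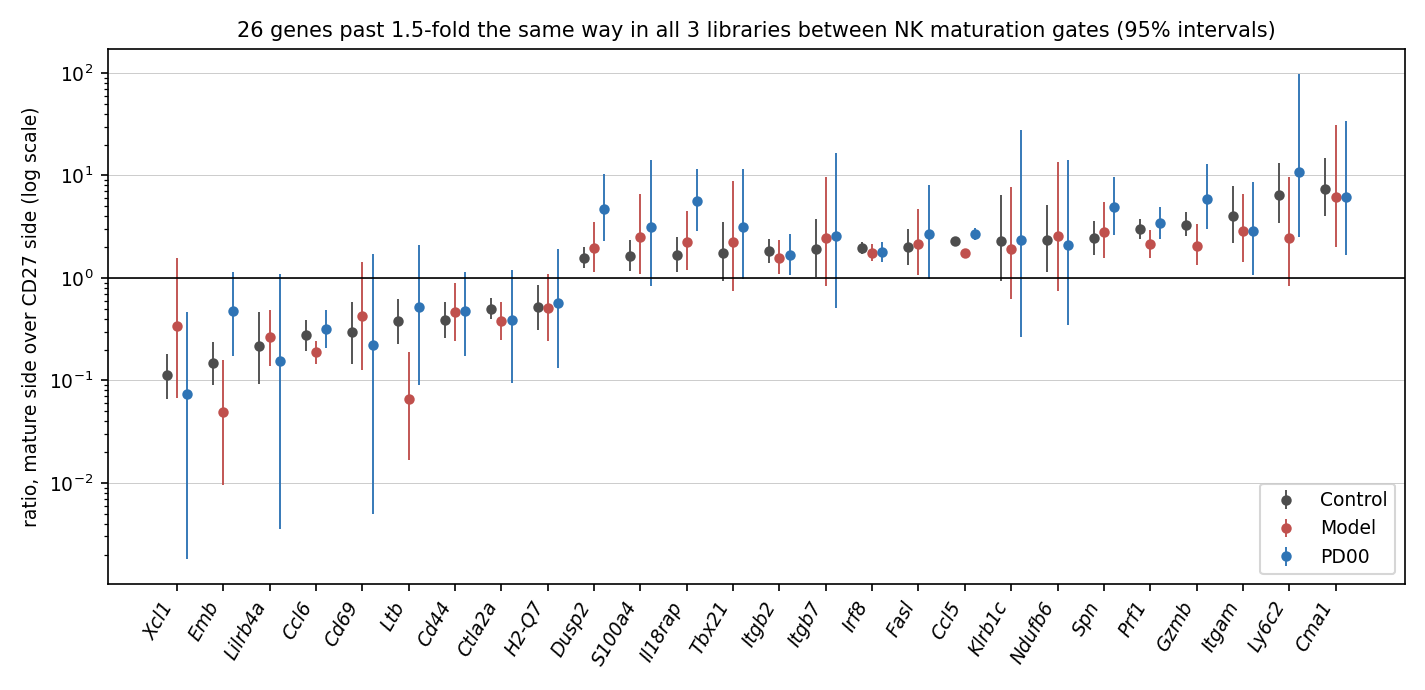
Ratio of CPM between mature-side and CD27-side NK cells on a log scale with 95% intervals, for the 26 genes past 1.5-fold the same way in Control, Model and PD00. From Xcl1 to H2-Q7 all points lie below 1, and from Dusp2 to Cma1 all lie above it.

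Cells with UMIs of Itga1 or Cxcr6, genes of tissue-resident NK cells, were 6.10%, 9.02% and 10.5% of NK cells (18, 11 and 4 cells). In Model 5 of these 11 were deep barcodes, and without deep barcodes the shares were 6.07%, 5.26% and 12.1%. Their Gzma was lower than in the other NK cells of each library, at 4687 against 10493 CPM in Control, 3589 against 8332 in Model and 2652 against 5332 in PD00. Without the deep barcodes this held in Control (5820 against 13330 CPM) and PD00 (2652 against 8513) but not in Model (10632 against 9115).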

How the data were processed

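The authors deposited UMI counts per gene and barcode for 3 droplet (10x) libraries of mouse lung, with Cell Ranger 3.1.0, STAR and mm10 named per the submitters' processing notes and cellranger 5.0.0 per the file headers. The count tables were used as deposited, 32285 genes in all. Members and gene lists (20 lists of 457 genes, 4 not found) were chosen with earlier results of these data known. NK counts were summed per library and scaled to CPM. Ratios have exact 95% conditional intervals, levels Poisson and shares Clopper-Pearson intervals, and a gene at 0 was set to 3 counts for a bound. UMIs within a cell are not independent, so intervals cover counting error only. With 1 library per treatment there was no test. A gene was called past 1.5-fold with at least 50 UMIs over both sums.

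Named genes were, in Model against Control and in PD00 against Model, the 8 highest and 8 lowest by the interval bound nearest 1, with intervals that exclude 1 (4 and 4 in PD00 against Control), plus the list members with most UMIs and those past 1.5-fold. Mitochondrial, ribosomal, haemoglobin, sex-linked, antigen receptor and unnamed genes and those of the rule were left out. Doublets were scored with Scrublet in scanpy 1.11.5 and not removed. The values without barcodes of over 10000 UMIs, without the cell holding most UMIs of a gene, with Klre1 in place of Ncr1, and the lists on thinned cells were chosen after seeing the data. Ratios were tested on simulated data. Tools were Python 3.11.15, numpy 2.4.6, scipy 1.17.1, pandas 2.3.3 and matplotlib 3.10.9. Some genes are not reported here.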

Additional observations from a re-analysis of the deposited data

How the results depend on the processing

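With 1 library per treatment and 38 NK cells in PD00, depth limits genes under about 50 UMIs, and animals and libraries cannot be told apart from treatment. No paired analysis was possible because each treatment has 1 library. The NK share kept its direction in every alternative run. Its ratio moved beyond the counting interval in 6 of 36 values: without cells holding T cell receptor, Cd8a or Cd4 UMIs it was 0.457 in Model against Control, 0.171 in PD00 against Model and 0.0781 in PD00 against Control, with Klrb1c in place of Ncr1 it was 0.552 in PD00 against Model and 0.234 in PD00 against Control, and on cells thinned to 1000 UMIs 0.247 in PD00 against Model.

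The number of genes past 1.5-fold moved with the number of cells and the UMI minimum, by construction. In Model against Control it was 1092 of 4553 measured genes. It went to 652 of 2296 with at least 2 Ncr1 UMIs and 726 of 2241 with Klrb1c. Without T cell receptor UMIs it was 281 of 723, and without cells holding over 2 UMIs of other lineages 631 of 2447. A minimum of 20 and 200 UMIs gave 2286 of 7263 and 262 of 1318, and thinned cells gave 357 of 1245. In PD00 against Model it was 490 of 2474. It went to 240 of 1055 with Klrb1c, 188 of 271 without T cell receptor UMIs and 198 of 910 without other lineages. Without barcodes of over 10000 UMIs it was 277 of 1614. The lower and higher minimum gave 1492 of 4925 and 58 of 493, and thinned cells gave 66 of 399. In PD00 against Control it was 1210 of 4001. Under the same 4 cell choices as in Model against Control it went to 732 of 2013, 612 of 1967, 328 of 619 and 763 of 1861. The minimums gave 2528 of 6631 and 239 of 1043, and thinned cells gave 365 of 996. Without T cell receptor UMIs the count fell in each comparison while the share of measured genes called rose.

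Of 3983 gene values 3218 stayed within their interval, 748 moved and 17 changed side of 1, and the cause was not tested. In Model against Control, Ctla2a was 1.31 with Klrb1c and 1.16 without T cell receptor UMIs, and Ctsw 1.12 without those. In PD00 against Model, leaving out other lineages gave 1.002 for Ctla2a and 1.15 for S100a4, Klre1 in place of Ncr1 gave 1.10 for Jun, 1.05 for S100a4 and 0.974 for Zmat2, and leaving out barcodes of over 10000 UMIs gave 1.68 for Jun. In PD00 against Control, Ifi203 was 1.37 without other lineages and 1.06 without barcodes of over 10000 UMIs, and Irf7 1.15 without other lineages. Ifnar1 was 0.960 with Klrb1c, and Top2a 0.595 with at least 2 Ncr1 UMIs. Without T cell receptor UMIs Il18rap was 0.722, Lgals1 1.13 and Tulp4 0.934. Of 464 list medians 42 moved, and those whose sign turned without the barcodes of over 10000 UMIs stand beside each list above.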

Other observations

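The variance over the mean among NK cells of a library differed between effector genes, and so did the mean. On cells thinned to 1000 UMIs, the variance over the mean (Fano factor) had a median of 1.11 in Control and 1.09 in Model over 451 genes. It was 7.86 and 5.58 for Ccl5, 7.17 and 3.42 for Ccl4 and 4.78 and 2.93 for Gzma. Prf1, with 1.39 and 1.49, and Irf8, with 1.44 and 1.80, lay nearer the median. The neutrophil gene S100a9 stood highest, at 57.5 and 7.60, with 90.5% and 85.2% of NK cells at 0. Lyz2 was 6.25 and 4.68.

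Dividing NK cells, gated on proliferation genes, were 7 of 295 in Control, 4 of 122 in Model and 4 of 38 in PD00 (2.37%, 3.28% and 10.5%), and 2, 4 and 2 cells without barcodes of over 10000 UMIs. Their median depth was 16775, 9225.5 and 10338.5 UMIs. After thinning the shares were 0.680%, 1.64% and 5.26%. Of 333 list genes measured, 19 were higher in them by at least 1.5-fold in all 3 libraries, among them Birc5, Pcna and Stmn1, and 22 lower, among them Klf2, Junb and Ifngr1. Without the deep barcodes 6 of the 19 and 9 of the 22 did so too. The lists include cell cycle genes and the share over all genes was not computed, so these counts are a description.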
